A study of Rattus norvegicus with 3 samples.

Results

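The genes described here detoxify peroxides and superoxide, make and use glutathione, break down haem and store iron, as measured in peripheral blood mononuclear cells (PBMCs), the lymphocytes and monocytes of blood, of treadmill-run rats. They were chosen by gene symbol, 34 symbols in all, and the probe set with the highest mean intensity over the arrays stood for each symbol. Of these, 30 had a probe set of their own among the 13893 genes so represented on the array. The other 4 (Prdx1, Blvrb, Ftl1 and Fth1) were measured only by probe sets that also list other, mostly numbered loci, so their values are given but enter no count. Ftl1 was found through its Entrez number, since the array annotation carries its older symbol Ftl.

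The study asked how the direction of the slope in treadmill running affects the mRNA profile of blood mononuclear cells. The groups were male Sprague–Dawley rats, 2 months old, run downhill (1 array), run uphill (1 array) or assigned to control (1 array), and no agent or transgene is named for any group. Per the labels' protocols, PBMCs were taken from 2 ml of a mixture whose makeup is not described, so whether animals were pooled is not given in the sources used here, nor is the running schedule or the time of blood sampling. With 1 array per group there was no spread between replicates, no p-value could be computed, and each difference below compares these arrays rather than the conditions.

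Peroxides formed by mitochondria and by the NADPH oxidase of phagocytes are removed by glutathione peroxidases, which spend glutathione, by peroxiredoxins, which spend thioredoxin, and by catalase. The transcription factor Nrf2 (gene Nfe2l2), held in check by Keap1, switches on many of these genes when cells are oxidatively stressed. Haem released from old red cells is opened by haem oxygenase to biliverdin, and the freed iron is stored in ferritin, a task for which monocytes and macrophages are known.

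Values are the authors' RMA intensity on a linear scale. Probe sets differ in efficiency, so an intensity is compared only between arrays and never between genes. The median over all probe sets ranged from 216.51 to 228.74 and the share called present from 52.4% to 54.4% over the 3 arrays. Actin signal near the 3' end over that near the 5' end, a sign of RNA and labelling quality, stood at 2.87 after downhill running and 2.68 after uphill running, against 2.39 in the control. The same ratio for GAPDH stood at 1.20 after downhill running and 1.32 after uphill running, against 1.18 in the control, another order of the arrays. A gene entered a comparison where the brighter of its 2 arrays reached an intensity of 353, the median of all gene values. As a yardstick for measurement error, the log2 differences given by separate probe sets of the same gene, all above that floor, were compared. Their median disagreement was 0.15 for downhill against control, 0.21 for uphill against control and 0.18 for downhill against uphill. The 95th percentiles of that disagreement were 0.63, 0.75 and 0.64 in the same order. Probe sets of a gene share their RNA, so this says nothing of the spread between animals.

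The labelled cell types were present on every array, and other blood cells left transcripts too. T cell markers were called present for 9 of 10 genes on each array, B cell markers for 5 of 5 and natural killer cell markers for 8 of 8. Monocyte markers, with 12 of 12 genes on the array, summed to an intensity of 61219 after downhill running and 55658 after uphill running, against 31408 in the control, with 10, 9 and 9 of the genes called present in that order and Cd163 and Ms4a7 on no array. Erythroid markers (14 genes) summed to 4761 after downhill running and 28656 after uphill running, against 6421 in the control, and of their genes 6 were called present after downhill running and 13 after uphill running, against 6 in the control. Neutrophil markers (8 of 13 genes on the array) summed to 16086, 32986 and 35799 in that order of arrays, and platelet markers (9 of 10 genes) to 84980, 95006 and 100166. In such bulk samples fewer cells of a type and less RNA per cell cannot be told apart, and the part of these shifts in the gene values below was not tested.

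**Figure D1:**
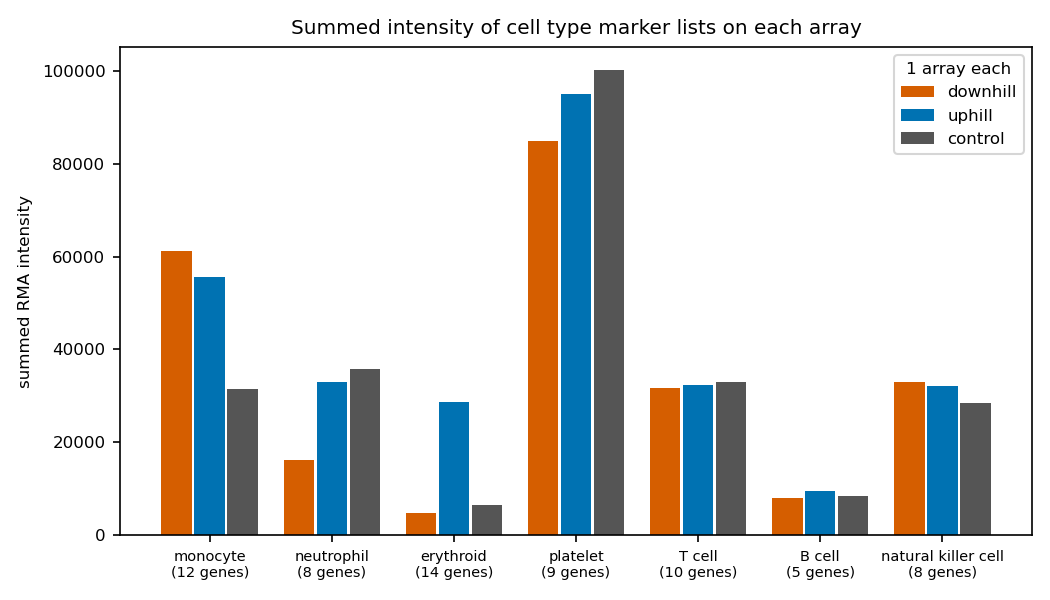
Summed RMA intensity (vertical axis, linear units, starting at 0) of the genes of each cell type marker list found on the array; each bar is 1 array, with downhill, uphill and control from left to right and no error bar because each group has 1 array. The monocyte bars of the running arrays (61219 and 55658) stand above the control bar (31408), and the erythroid bar of the uphill array (28656) stands far above those of the downhill (4761) and control (6421) arrays.

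Between the downhill and the control array, 4 of the 5 antioxidant genes that stood at least 1.5-fold apart were higher on the downhill array. They were Prdx5, a peroxiredoxin of mitochondria, peroxisomes and cytosol (2.01-fold), Hmox1, the inducible haem oxygenase (1.82-fold), Mgst1, a membrane-bound glutathione transferase and peroxidase (1.66-fold), and Gpx1, the main intracellular glutathione peroxidase (1.59-fold). Gpx3, the secreted glutathione peroxidase of plasma, was 1.64-fold lower.

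Of the 30 genes with their own probe set, 28 reached the floor in this comparison, and 18 were higher and 10 lower on the downhill array, beside 49.3% and 50.7% of all genes. Only Prdx5 among them was at least 2-fold different, beside 0.826% of all 7264 genes that were higher by that much and 0.275% that were lower. That call ended under quantile normalization (log2 difference 0.996 against 1.01 as deposited), cyclic loess (0.986) and an offset of 50 before taking log2 (0.999). At 1.5-fold, 4 genes (14.3%) were higher and 1 gene (3.57%) lower, beside 3.33% and 2.37% of all genes. Their median log2 difference was 0.24, against -0.0051 for all genes above the floor. Among the brightest genes, those with an intensity of at least 964, 15 of 19 antioxidant genes were higher, with a median of 0.29, beside 54.6% and a median of 0.035 for all such genes. Hmox1 is among these 19 only through its downhill value, so the count and median describe them and are no support. The monocyte markers above the floor were higher on the downhill array in 8 of 8 cases with a median log2 difference of 1.39. The neutrophil markers were lower in 7 of 7 with a median of -1.17 and the erythroid markers lower in 6 of 6 with a median of -0.38. Only these 6 of the 14 erythroid genes reached the floor, and Hba-a3 among them was called absent on both arrays. Below the floor, Ahsp, Fech and Klf1 were higher on the downhill array and the other erythroid genes lower.

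Between the uphill and the control array, Prdx5 (1.75-fold), Gpx1 (1.71-fold) and Prdx2, a cytosolic peroxiredoxin that is abundant in red cells (1.59-fold), were the antioxidant genes furthest above control. Gsr, which returns oxidised glutathione to its reduced form, was 1.60-fold lower, and Gss, which joins glycine to complete glutathione, was 1.46-fold lower. Of the 29 genes above the floor, which Gclm passed only through its uphill value and Gsr and Srxn1 only through their control values, 20 were higher and 9 lower, beside 54.5% and 45.5% of all genes. None was at least 2-fold different, beside 0.901% of all 7323 genes that were higher by that much and 0.464% that were lower. At 1.5-fold, 3 (10.3%) were higher and 1 (3.45%) lower, beside 3.35% and 3.11% of all genes. Their median was 0.15, against 0.028 for all genes. With an intensity of at least 964, 14 of 18 were higher, with a median of 0.31, beside 59.1% and a median of 0.054 for all such genes. Erythroid markers above the floor were higher on the uphill array in 10 of 12 cases (median 2.12) and monocyte markers in 8 of 8 (median 0.67). Both comparisons use the same control array, so a high or low control value enters each of them.

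Set directly against each other, the downhill and uphill arrays differed most in Gclm, the modifier subunit of the enzyme that begins glutathione synthesis, and in Nfe2l2, which encodes Nrf2. Gclm was 1.63-fold lower and Nfe2l2 1.51-fold higher on the downhill array. Of 29 genes above the floor, 13 were higher and 16 lower on the downhill array, beside 46.1% and 53.9% of all genes, with a median log2 difference of -0.045 against -0.025 for all genes. Their median was 0.0030 under quantile normalization and 0.0099 with all probe sets of a gene averaged. None was at least 2-fold different, beside 0.334% of all 7175 genes that were higher by that much and 0.557% that were lower, and at 1.5-fold the 1 gene higher and 1 gene lower (3.45% each) stand beside 2.16% and 2.29% of all genes. Gclm, the gene lower, passed the floor only through its uphill value, and Gsr and Srxn1 only through their downhill values. The erythroid markers above the floor were lower on the downhill array in 11 of 12 cases (median log2 difference -2.29) and the neutrophil markers in 6 of 6 (median -0.90), while the monocyte markers were higher in 7 of 8 (median 0.30).

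**Figure D2:**
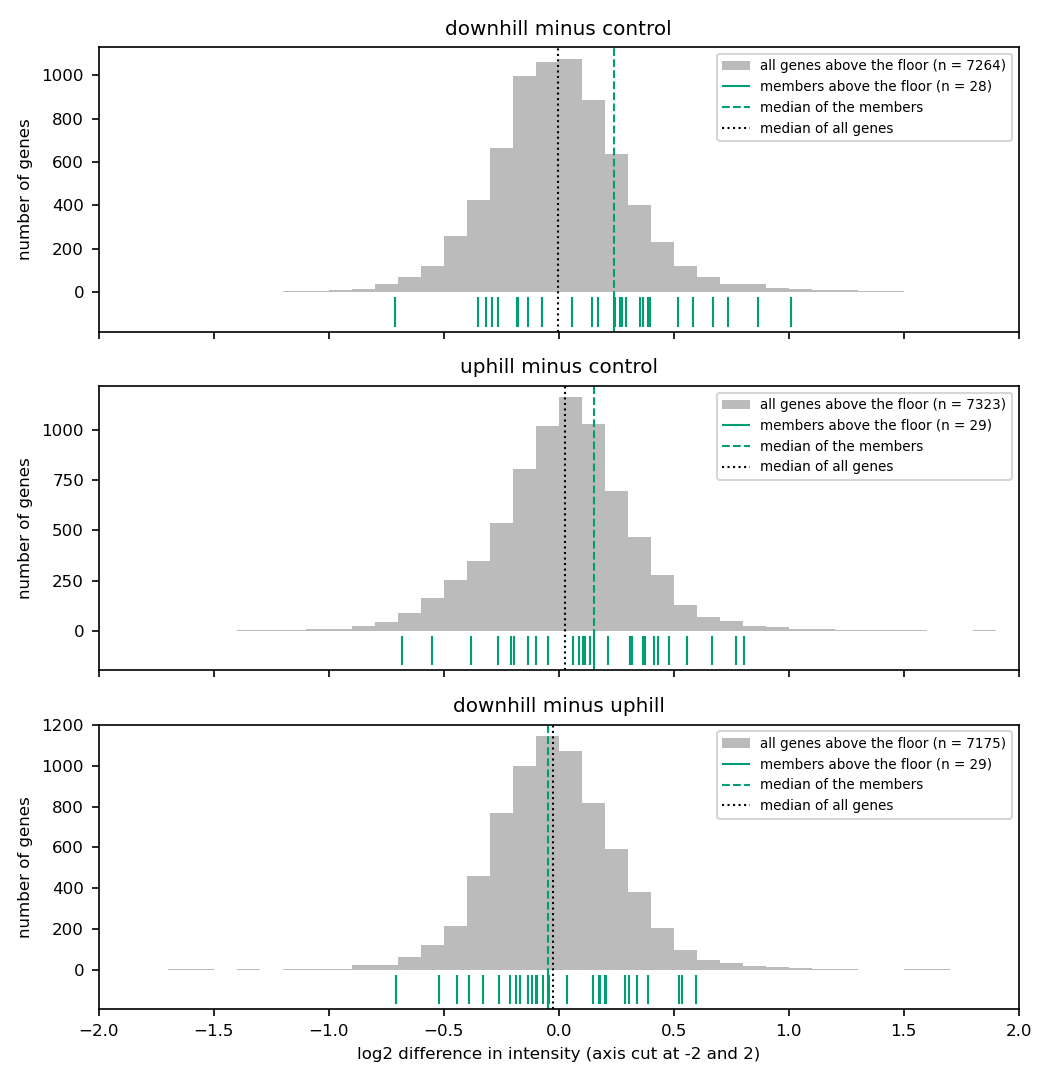
Histograms of the log2 difference in intensity (horizontal axis, shown from -2 to 2) for all genes above the floor, with the number of genes on the vertical axis and a green tick for each antioxidant, glutathione or iron gene above the floor; dashed and dotted lines mark the medians of these genes and of all genes. The medians lie at 0.24 and -0.0051 for downhill minus control, 0.15 and 0.028 for uphill minus control, and -0.045 and -0.025 for downhill minus uphill.

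Glutathione is made in a pair of steps, and cystine from outside the cell is a source of the cysteine it needs. Gclm had an intensity of 300.43 after downhill running and 491.2 after uphill running, against 352.0 in the control, just under the floor there. It was therefore highest after uphill running, 1.40-fold above control, and lowest after downhill running, though the downhill and control values both lay under the floor. Gclc, the catalytic subunit of the same enzyme, had 489.01 after downhill running and 522.12 after uphill running, against 469.37 in the control, and its dimmer second probe set went the other way in each comparison with control (log2 differences -0.095 and -0.18). So the catalytic subunit did not share the size of the difference seen for its partner. Gss had 590.31 after downhill running and 513.9 after uphill running, against 752.47 in the control. Gsr had 374.61 after downhill running and 285.85 after uphill running, against 458.24 in the control. Synthetase and reductase were thus highest on the control array and lowest on the uphill array. On the uphill array 1.80% of all genes lay as far below control as Gsr. Gsr passed the floor in that comparison only through its control value, so this share describes it and is no support. Slc7a11, the cystine importer, was called present on every array but stayed below the floor (108.94 downhill, 134.15 uphill, 150.49 control). On the Rnor3.4 assembly used by the array annotation, the Gsr probe set aligned to chromosome 16 (62255568 to 62298455, minus strand).

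The promoter of Gclm, 250 bases before the RefSeq gene start on GRCr8 (chr2:213031885-213032134, plus strand), is printed because this gene differed most between the slopes and its promoter holds a core of the antioxidant response element, the motif that Nrf2 binds. The others shown with it are those of Prdx5, the gene furthest from control (chr1:213532028-213532277, minus strand), and of Prdx1 (chr5:135383656-135383905, plus strand) and Gstp1 (chr1:210769706-210769955, minus strand), in which the same core overlaps an AP-1 motif. Capitals mark the core TGACNNNGC or its reverse complement, and Prdx5 has none in this window.
Prdx5: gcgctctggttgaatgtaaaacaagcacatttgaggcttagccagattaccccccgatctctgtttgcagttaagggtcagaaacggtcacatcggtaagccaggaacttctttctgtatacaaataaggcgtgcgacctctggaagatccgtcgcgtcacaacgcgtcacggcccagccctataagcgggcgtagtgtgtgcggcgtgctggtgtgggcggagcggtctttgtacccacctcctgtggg
Gclm: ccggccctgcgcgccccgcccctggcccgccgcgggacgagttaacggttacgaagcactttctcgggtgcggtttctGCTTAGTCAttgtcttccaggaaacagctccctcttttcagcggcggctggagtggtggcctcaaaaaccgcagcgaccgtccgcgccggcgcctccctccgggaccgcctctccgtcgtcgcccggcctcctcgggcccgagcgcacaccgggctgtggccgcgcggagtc
Prdx1: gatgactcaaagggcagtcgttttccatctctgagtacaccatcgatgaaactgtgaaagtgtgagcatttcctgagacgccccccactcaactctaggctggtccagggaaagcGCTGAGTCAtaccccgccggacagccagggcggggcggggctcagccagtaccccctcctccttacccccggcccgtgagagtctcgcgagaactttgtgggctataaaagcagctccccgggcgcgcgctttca
Gstp1: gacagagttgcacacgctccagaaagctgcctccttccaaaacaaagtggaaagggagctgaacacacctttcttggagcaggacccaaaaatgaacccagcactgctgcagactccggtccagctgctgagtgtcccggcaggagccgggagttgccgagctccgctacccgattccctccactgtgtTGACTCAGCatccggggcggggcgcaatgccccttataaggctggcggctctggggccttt

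The core was searched on both strands in the RefSeq windows that 28 of the 34 genes have, 31 windows in all since some genes have several starts. It was found in 6 windows, 1 each of Gclm, Txnrd1, Prdx1, Gstp1, Sod2 and Blvra, which is 19.4% of them, beside 10.1% of all 33469 windows. In Gclm it spans bases 172 to 164 before the start, in Prdx1 135 to 127 and in Gstp1 61 to 53. In 2 windows (Prdx1 and Gstp1) the core overlapped the AP-1 motif TGANTCA, which was in 4 of the 31 windows and in 6.34% of all windows, and the overlap itself was in 0.376% of all windows. The genes with the core lay on both sides of control. Between downhill and control Txnrd1 and Blvra were higher and Gstp1 and Sod2 lower. The shared probe set of Prdx1 was higher too, and Gclm was lower with both of its values under the floor. A match of letters is a description of the sequence and is no evidence of binding, and a window without it says nothing about the factor.

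The glutathione peroxidases use reduced glutathione to remove peroxides, and Gpx1, Gpx3 and Gpx4 are selenoproteins. Gpx1 had an intensity of 13171 after downhill running and 14117 after uphill running, against 8277 in the control. The 2 running arrays lay close together and far from control, 1.59-fold and 1.71-fold above it, and 2.34% and 1.75% of all genes were as far above control. The Gpx1 probe set has 2 alignments on Rnor3.4, and whether a second locus adds to its signal was not tested. Gpx4, which repairs oxidised membrane lipids, had 3616 after downhill running and 3792 after uphill running, against 3054 in the control (1.18-fold and 1.24-fold higher). A second Gpx4 probe set was called absent on every array and carries no fold. Gpx3 went the other way, with 398.58 after downhill running and 500.15 after uphill running, against 651.99 in the control. It was 1.64-fold lower on the downhill array and 1.30-fold lower on the uphill array, and 1.07% of all genes lay as far below control on the downhill array. Its probe set aligned to chromosome 10 of Rnor3.4 (40311132 to 40319381, plus strand).

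Peroxiredoxins remove peroxides with electrons from thioredoxin. Prdx5 had an intensity of 7534 after downhill running and 6541 after uphill running, against 3745 in the control, and 0.812% and 1.52% of all genes lay as far above control. It was the antioxidant gene furthest from control in each of these comparisons, while the running arrays differed from each other by only 1.15-fold. Prdx1, on a probe set shared with 2 other loci, had 3225 after downhill running and 2446 after uphill running, against 1985 in the control, and its 1.62-fold and 1.23-fold differences cannot be told apart from those of the other loci.

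Prdx2 behaved otherwise, with 3920 after downhill running and 5628 after uphill running, against 3548 in the control. It was 1.10-fold higher on the downhill array but 1.59-fold higher on the uphill array. Whether the high erythroid markers of the uphill array had a part in this was not tested. Prdx6, a peroxiredoxin with phospholipase activity, also ranked highest on the uphill array, with 2044 after downhill running and 2449 after uphill running, against 1814 in the control. Prdx4, the peroxiredoxin of the endoplasmic reticulum, ranked highest on the downhill array (1589 downhill, 1300 uphill, 1207 control). Prdx3, the mitochondrial form, differed by at most 1.14-fold between any of the arrays (1239 downhill, 1408 uphill, 1301 control). The mitochondrial pair Prdx3 and Prdx5 therefore differed by very unequal amounts.

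Thioredoxin and its reductases pass electrons to these enzymes. Txn1, the cytosolic thioredoxin, had 11244 after downhill running and 9941 after uphill running, against 9342 in the control. Txnrd1, the cytosolic thioredoxin reductase, had 1973 after downhill running and 2166 after uphill running, against 1669 in the control (1.18-fold and 1.30-fold higher), while its dimmer probe set differed by 1.09-fold and 1.01-fold. The mitochondrial reductase Txnrd2 had 460.66 after downhill running and 533.21 after uphill running, against 484.91 in the control. Srxn1, which repairs overoxidised peroxiredoxins and is a classic Nrf2 target, was called present only on the downhill array (452.79), marginal on the uphill array (312.13) and absent on the control array (374.57). Its downhill value was thus at least 1.45-fold above uphill and at least 1.21-fold above control, and its 2 other probe sets were absent throughout.

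**Figure D3:**
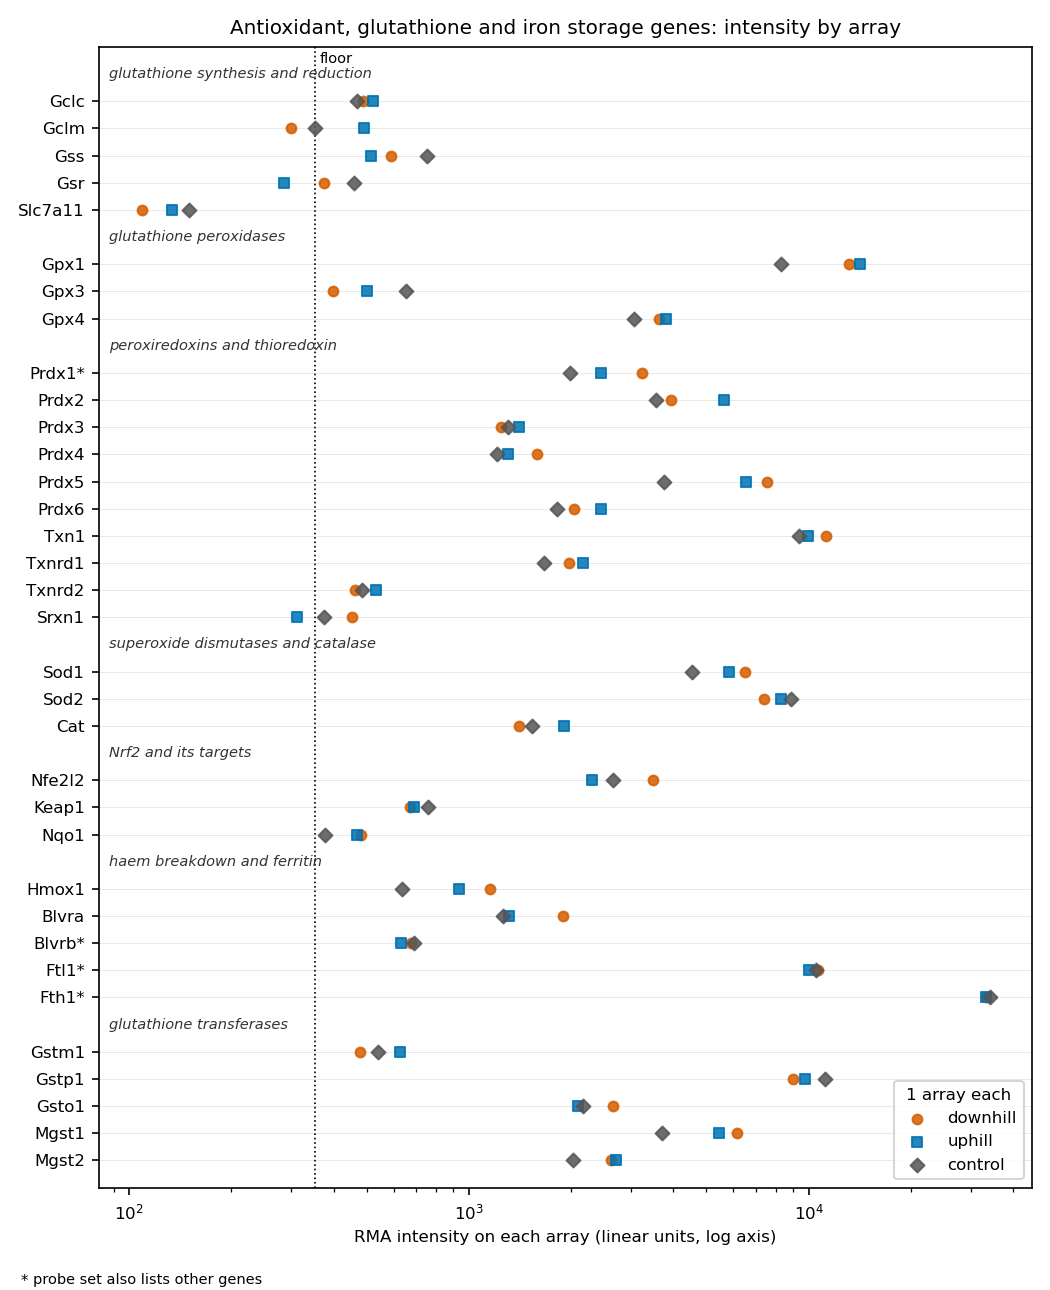
RMA intensity (horizontal log axis, linear units) of each of the 34 genes, grouped by role down the page; each point is 1 array (circle downhill, square uphill, diamond control), the dotted line is the floor of 353 and an asterisk marks a probe set that also lists other genes. Prdx5 and Gpx1 show the running arrays together and right of control, Prdx2 shows the uphill array alone to the right, and Gsr and Gss show the control array to the right of both running arrays.

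Superoxide is turned into peroxide by the superoxide dismutases, and catalase breaks peroxide down. Sod1, the copper and zinc enzyme of the cytosol, had an intensity of 6475 after downhill running and 5834 after uphill running, against 4524 in the control (1.43-fold and 1.29-fold higher). Sod2, the manganese enzyme of mitochondria and an NF-kB target, had 7401 after downhill running and 8310 after uphill running, against 8897 in the control. The dismutases therefore lay on opposite sides of control. For Sod2 the size depended on the probe set, since the dimmer one had 2572 after downhill running and 2707 after uphill running, against 4188 in the control, which is 1.63-fold and 1.55-fold lower, while the brighter one was 1.20-fold and 1.07-fold lower. Cat had 1401 after downhill running and 1904 after uphill running, against 1536 in the control. Catalase was thus highest on the uphill array and 1.36-fold lower on the downhill array than there.

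The mRNA of Nrf2 differed between the downhill and uphill arrays by 0.60 on the log2 scale. This is less than the 95th percentile of the disagreement between probe sets of a gene (0.64). Nfe2l2 had an intensity of 3474 after downhill running and 2295 after uphill running, against 2652 in the control. It was thus 1.31-fold above control after downhill running and 1.16-fold below it after uphill running, and 1.98% of all genes lay as far above uphill on the downhill array. Keap1, its inhibitor, had 669.86 after downhill running and 690.98 after uphill running, against 758.82 in the control. Nqo1, a quinone reductase and classic Nrf2 target, had 480.24 after downhill running and 468.88 after uphill running, against 376.05 in the control (1.28-fold and 1.25-fold higher). Between the slopes the known Nrf2 targets went different ways. On the downhill array Srxn1 was at least 1.45-fold and Hmox1 1.24-fold above the uphill array, Nqo1 was within 1.02-fold of it and Gclm was 1.63-fold below it.

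Haem breakdown starts with Hmox1, which had an intensity of 1155 after downhill running and 934.05 after uphill running, against 633.97 in the control. It was 1.82-fold and 1.47-fold higher, and 1.31% and 3.80% of all genes lay as far above control. Its probe set aligned to chromosome 19 of Rnor3.4 (13963136 to 13969960, plus strand). Blvra, which reduces the biliverdin so formed to bilirubin, had 1886 after downhill running and 1314 after uphill running, against 1258 in the control. Its downhill difference from control, 0.58 on the log2 scale and just under 1.5-fold, stood beside 0.063 for uphill minus control, and the downhill array was 1.44-fold above the uphill array. The Blvra probe set has 2 alignments on Rnor3.4, and whether a second locus adds to its signal was not tested. Blvrb, a second biliverdin reductase, on a probe set shared with 1 other locus, had 674.72 after downhill running and 632.93 after uphill running, against 690.38 in the control.

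Ferritin stores the iron that haem breakdown frees. The Fth1 probe set (heavy chain) had an intensity of 33143 after downhill running and 33220 after uphill running, against 34067 in the control, the highest single value of the whole matrix. The Ftl1 probe set (light chain), which lists 10 loci, had 10641 after downhill running and 10006 after uphill running, against 10482 in the control. The ferritin probe sets differed from control by no more than 1.05-fold. Whether probe sets this bright, and shared with other loci, could show a difference in ferritin mRNA was not tested.

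Glutathione transferases couple glutathione to electrophiles. The membrane-bound forms were higher on the running arrays. Mgst1 had an intensity of 6165 after downhill running and 5453 after uphill running, against 3705 in the control (1.66-fold and 1.47-fold higher), and Mgst2 had 2621 after downhill running and 2702 after uphill running, against 2031 in the control (1.29-fold and 1.33-fold higher). Of the soluble forms, Gstp1 had 9008 after downhill running and 9777 after uphill running, against 11198 in the control, the reverse order. Gsto1 had 2649 after downhill running and 2094 after uphill running, against 2162 in the control, and Gstm1 had 477.25 after downhill running and 625.93 after uphill running, against 540.21 in the control. Gsto1 was thus highest after downhill running and Gstm1 after uphill running, each within 1.32-fold of the others.

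**Figure D4:**
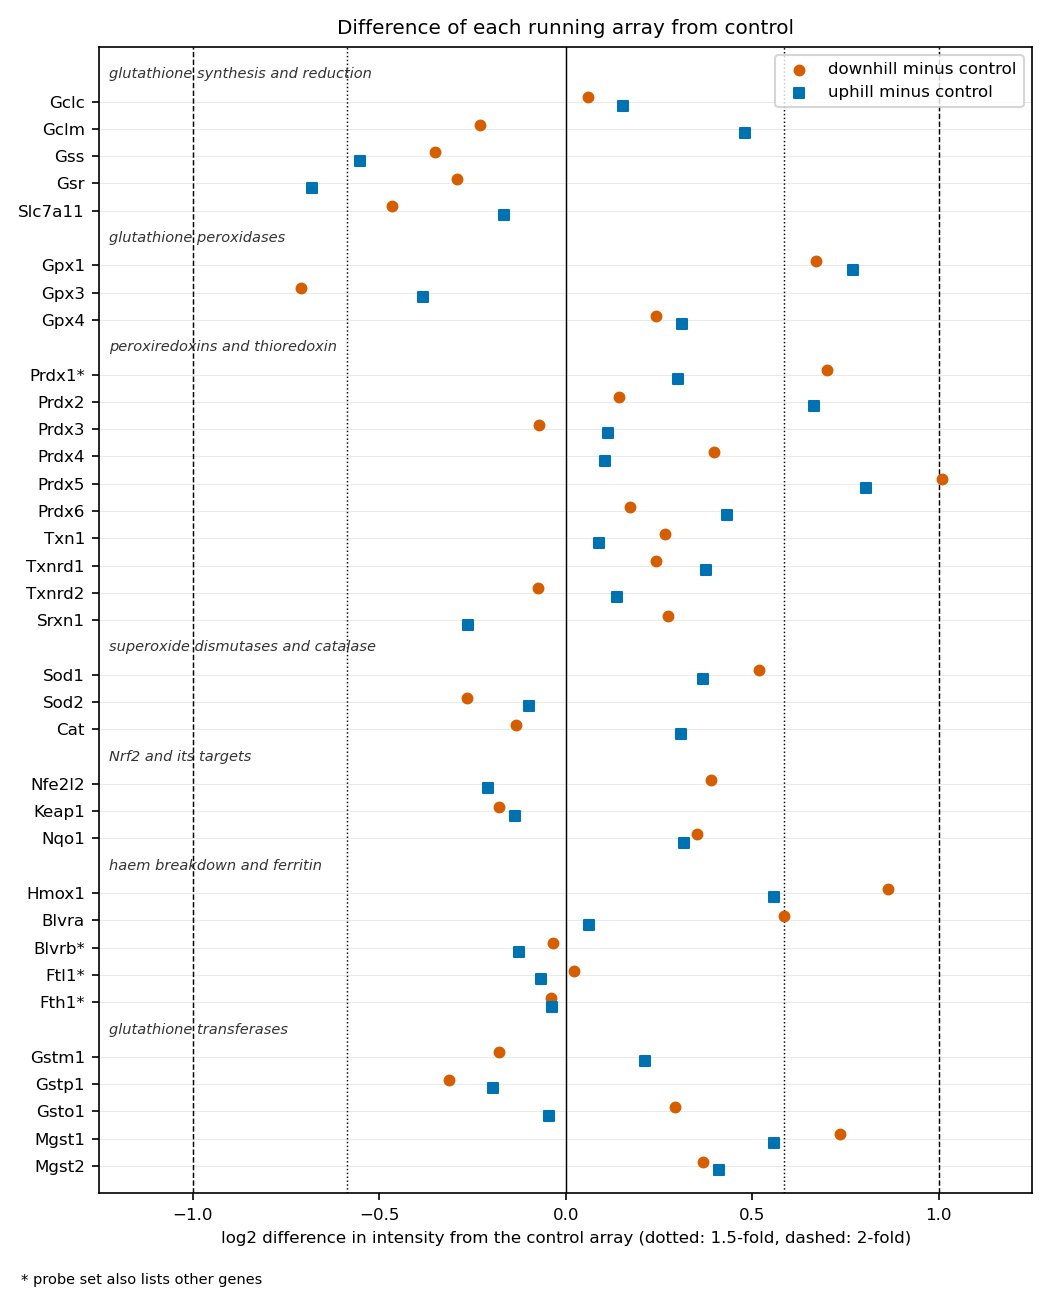
Log2 difference in intensity from the control array (horizontal axis) for each of the 34 genes by role; circles are downhill minus control, squares uphill minus control, dotted lines mark 1.5-fold, dashed lines 2-fold, and an asterisk marks a shared probe set. Srxn1 is drawn at its measured values although only the downhill array called it present. Prdx5 alone reaches a dashed line (1.01, downhill), Gpx1, Mgst1 and Hmox1 lie well to the right for the downhill array, and Gpx3 (-0.71, downhill) and Gsr (-0.68, uphill) lie furthest to the left.

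Set against the disagreement between probe sets of a gene, few of these differences were large. Between downhill and control the differences of Prdx5 (1.01), Hmox1 (0.87), Mgst1 (0.73), Gpx3 (-0.71) and Gpx1 (0.67) exceeded its 95th percentile of 0.63. Between uphill and control only Prdx5 (0.80) and Gpx1 (0.77) exceeded 0.75, and between downhill and uphill only Gclm (-0.71) exceeded 0.64, while Nfe2l2 (0.60) did not.

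Related genes outside the set give the setting of these values, and each one named, at most 4 per list, differed at least 1.5-fold in a comparison. Among all genes above the floor, 3.33% were higher by that much on the downhill than on the control array and 2.37% lower. Between uphill and control these shares were 3.35% and 3.11%, and between downhill and uphill 2.16% and 2.29%. Among the 7 genes above the floor of the NADPH oxidase and its regulators, the peroxide source of phagocytes, Ncf4 had an intensity of 3507 after downhill running and 3095 after uphill running, against 2161 in the control, and Cyba had 4722 after downhill running and 4202 after uphill running, against 3019 in the control. Both were thus more than 1.5-fold higher on the downhill array, with 4 of the 7 genes above control there and 5 of 7 on the uphill array. Of 11 genes that supply NADPH, 8 were higher on the downhill array (median log2 difference 0.27) and 10 on the uphill array (median 0.31). Such counts stand beside the 49.3% of all genes that were higher on the downhill array and the 54.5% on the uphill array. The only one at least 1.5-fold apart in a comparison was Me1, the cytosolic malic enzyme, with 1101 after downhill running and 1454 after uphill running, against 2072 in the control. Of 11 genes for thioredoxin function and methionine repair above the floor, 5 were higher and 6 lower on the downhill array. Msrb1, which repairs oxidised methionine, was 1.89-fold higher on the downhill array than on the control array, and Sesn2, a stress-induced sestrin, was 1.59-fold lower there. On the uphill array 10 of 12 were higher than control, none by 1.5-fold. Txnip, the inhibitor of thioredoxin, was 1.65-fold lower after downhill than after uphill running.

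Other genes of the field stood out on the uphill array. Whether its high erythroid markers had a part in this was not tested. Sephs2, which makes the selenium donor for selenoproteins, had an intensity of 943.79 after downhill running and 2829 after uphill running, against 945.71 in the control, and was the only one of 13 selenoprotein-related genes above the floor to differ by 1.5-fold. In the list of glutathione turnover and other transferases, 9 of the 12 genes above the floor were higher than control after downhill running and 9 after uphill running. Hagh, the glyoxalase that frees glutathione from its lactoyl ester, had 744.02 after downhill running and 1713 after uphill running, against 759.79 in the control. Glrx5, the glutaredoxin of iron-sulfur cluster assembly, was also higher on the uphill than on the control array (1.56-fold). Of the 13 genes above the floor for iron uptake, export and regulation, 10 were higher on the uphill array than on the control array (median 0.14). Between downhill and control 6 were higher and 6 lower (median 0.014). The shares of all genes that were higher were 54.5% on the uphill array and 49.3% on the downhill array. Among 11 partners and further targets of Nrf2, 5 were higher and 6 lower than control on each running array. The small Maf proteins Maff (1.88-fold) and Mafg (1.60-fold) and the target Osgin1 (1.69-fold) were lower on the uphill than on the control array. By at least 1.5-fold, 3.11% of all genes were lower there. Aldh2 was 1.52-fold higher on the downhill than on the control array. Osgin1, like Nfe2l2, was higher after downhill than after uphill running (1.97-fold).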

How the data were processed

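RNA of 3 arrays (an Affymetrix rat expression array) was analysed, 1 each for downhill running, uphill running and control. The deposited intensity values were made by the authors with RMA, per the submitters' processing notes. Its software was not given in the sources used here. Deposited values are linear, from 1 to 34066.62, not log2, and further scaling is not recorded. The deposited matrix also gives a present, marginal or absent call whose algorithm is not stated. The series' deposited value table matched this matrix in each of 93297 cells (tolerance 1e-06).

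Of 31099 probe sets, 19628 carry 1 gene symbol, and 19192 of these were matched to current names (GRCr8) by Entrez number. The brightest probe set stood for a gene, values were converted to log2 without an offset, and the floor was 353. Folds are intensity ratios, with "at least" for a dimmer value that lacked a present call. No test was possible, and the number of arrays limits the precision. Alternatives were quantile normalization, median centring, cyclic loess (span 0.7, 3 iterations; limma 3.58.1 in R 4.3.3), an offset of 50, averaged probe sets, other floors, present calls and a 1.5-fold threshold. All 34 genes are named, and of the related lists at most 4 genes each that differed at least 1.5-fold, except for 1 that is not reported here. The genes and lists were chosen with earlier results of these data known. Promoter sequences are those of RefSeq on GRCr8.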

Additional observations from a re-analysis of the deposited data

Results flagged for a closer look

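Gclm and Nfe2l2 lay on opposite sides of control on the 2 running arrays and differed by at least 1.5-fold between them. The log2 difference of Gclm, downhill minus uphill, was -0.71, with -0.23 for downhill minus control and 0.48 for uphill minus control, and 1.20% of all genes lay as far below uphill. For Nfe2l2 the difference between the slopes was 0.60, with 0.39 for downhill minus control and -0.21 for uphill minus control. That -0.21 is about the size of the median disagreement between probe sets of a gene in the same comparison (0.21). With 1 array per group these differences were not tested. Over 6 other scalings and probe set choices the difference between the slopes ranged from -0.73 to -0.63 for Gclm and from 0.58 to 0.63 for Nfe2l2.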

How the results depend on the processing

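No paired analysis was possible because each group has 1 array and no test was made. The count of antioxidant genes at least 2-fold different between downhill and control was 1 as deposited and 0 under quantile normalization, 0 under cyclic loess and 0 with an offset of 50, since Prdx5 lies at the threshold. At 1.5-fold the counts were 5 between downhill and control, 4 between uphill and control and 2 between downhill and uphill, against 1, 0 and 0 at 2-fold. The median difference between downhill and uphill was -0.045 as deposited and turned to 0.0030 under quantile normalization and 0.0099 with all probe sets of a gene averaged. These values are smaller than the median disagreement between probe sets of a gene (0.18), and the cause was not tested. The medians ranged from 0.18 to 0.30 between downhill and control and from 0.14 to 0.31 between uphill and control over the alternatives tried, including the 4 shared probe sets, an alternative added after seeing the data. Of 537 single gene values recomputed, 7 moved by more than the median disagreement in their comparison, in Gpx4, Keap1, Sod2 and Srxn1, which have further probe sets. Where members had other probe sets, these differed from the brightest by a median of 0.34 on the log2 scale. Median centring moved the median of all genes between uphill and control to 0.11. The low signal of Slc7a11, Srxn1 and Gclm limits their precision.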
